A study of Mus musculus with 6 samples.

Results

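The 10 genes described here encode the chains and proximal signalling proteins of the receptors that share the common gamma chain. They are Il2rg, Il2rb, Il2ra, Il15ra, Il4ra, Il7r and Il21r for the receptor chains, Jak3 for the kinase and Stat5a and Stat5b for the transcription factors. They were taken by name from a table of 12942 genes, with earlier results of these data known. All 10 were found in it and passed the filter on low values. RNA sequencing measured transcripts in iNKT1 cells that had been sorted from mouse liver by CD1d tetramer binding and YFP. These innate-like T cells see lipids presented by CD1d, and T-bet, the product of Tbx21, drives their type 1 programme. The cKOHet group (3 libraries) had the genotype Tbx21Cre Ets1F/F Tbx21F/+ Rosa26-YFP+, so that both Ets1 alleles and 1 Tbx21 allele were floxed. The Control group (3 libraries) had the genotype Tbx21Cre Rosa26-YFP+. Cre named for Tbx21 and the Rosa26 YFP reporter were thus shared by both groups, and the effect of the floxed Tbx21 allele cannot be told apart from that of Ets1. The titles of cKOHet replicate 1 and Control replicate 4 read iNKT, and those of the other libraries iNKT1. No source used here gives the age of the mice or how many stand behind a library.

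The gamma chain has no ligand of its own. It pairs with a private chain in the receptors for the interleukins IL-2, IL-4, IL-7, IL-9, IL-15 and IL-21, and the beta chain Il2rb serves IL-2 and IL-15 alike. Binding of the ligand brings together Jak1 on the private or beta chain and Jak3 on the gamma chain, which phosphorylate Stat proteins, above all Stat5 for IL-2, IL-7 and IL-15, Stat6 for IL-4 and Stat3 for IL-21. iNKT1 cells are known for high surface Il2rb (CD122) and for their need of IL-15.

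Ets1 encodes a transcription factor that binds DNA around the core GGAA, and this core is marked in 3 promoter windows as context for the members in cells with floxed Ets1. The windows are the 250 bases before a start listed for the gene in RefSeq on GRCm38.p6. Entries were held for 9 of the 10 members, all but Il2rb, with more than 1 window for some. Shown are the genes of the shared chain (Il2rg, chrX:101268256-101268505, minus strand) and of the private chains that were called higher in cKOHet cells (Il2ra, chr2:11642542-11642791, and Il21r, chr7:125603179-125603428, plus strand), none of which overlaps an annotated exon. Capitals mark GGAA, written TTCC where it lies on the other strand, and each sequence runs 5′ to 3′ towards the gene.
Il2rg: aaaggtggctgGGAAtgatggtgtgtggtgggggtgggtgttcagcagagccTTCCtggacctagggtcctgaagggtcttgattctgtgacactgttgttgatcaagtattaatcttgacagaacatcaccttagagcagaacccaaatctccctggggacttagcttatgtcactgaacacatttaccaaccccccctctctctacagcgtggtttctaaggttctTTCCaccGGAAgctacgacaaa
Il2ra: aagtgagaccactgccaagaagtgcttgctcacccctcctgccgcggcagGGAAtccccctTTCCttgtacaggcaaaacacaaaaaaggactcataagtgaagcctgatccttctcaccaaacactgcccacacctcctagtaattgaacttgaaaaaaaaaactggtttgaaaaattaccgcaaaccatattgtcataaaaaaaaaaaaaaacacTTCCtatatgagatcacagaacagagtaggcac
Il21r: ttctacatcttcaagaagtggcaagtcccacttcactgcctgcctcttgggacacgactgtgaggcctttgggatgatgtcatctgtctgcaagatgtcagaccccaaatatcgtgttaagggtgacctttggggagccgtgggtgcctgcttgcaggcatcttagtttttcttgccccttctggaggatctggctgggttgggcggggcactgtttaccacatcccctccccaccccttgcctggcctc
The Il2rg window held 4 matches, the Il2ra window 3 and the Il21r window 0. Over all 32851 promoter windows of this length the median was 3, 93.4% held at least 1 match and 6.55% held none, and 33.4% held 4 or more. Across the 12 windows of the 9 members the number ran from 0 to 9. Some of these windows lie inside the annotated gene, such as that of Stat5b at 100822571 to 100822820. Up to 175 of the 250 bases of a window overlap annotated exons. The longer Ets-type sequence CCGGAAGT was in 0 of the 12 windows, against 2.88% of all windows. The Stat-type sequence TTCNNNGAA was in 1 of the 12, that of Il7r, where it overlaps a GGAA, against 7.02% of all windows. Both strands were searched for each motif. These are matches of letters and not measured binding.

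Ets1 itself (chromosome 9, 32636221 to 32757820) was at 462, 596 and 441 normalised read counts in cKOHet libraries, against 7391, 6255 and 7787 in Control libraries. Tbx21 (chromosome 11, 97098071 to 97115331) averaged 2206 ± 98.5 in cKOHet and 2568 ± 174 in Control libraries, a log2 fold change of -0.22 (limma adjusted p = 0.196). Tbx21 was not called, but its groups did not overlap (2127 to 2316 in cKOHet and 2434 to 2765 in Control libraries). Column sums lay between 4996523 and 5219483 normalised counts. Replicate 4 of each group had Xist at 0.08 in cKOHet and 1.17 in Control, while the other 4 libraries lay between 4337 and 5657, so that this split is even across the groups. Of 8 iNKT and T cell markers all were present, with summed levels of 21748 to 22337 in cKOHet and 17846 to 22611 in Control libraries. Within that list Zbtb16 and Cd247 were called higher in cKOHet libraries (log2 fold change 0.53 and 0.37, limma adjusted p = 0.0267 and 0.025), Cxcr3 was called lower (-0.51, limma adjusted p = 0.00377), and the other 5 were not called. Some markers of other cell types were higher in cKOHet libraries. The 3 macrophage and monocyte markers measured, of 6 in the list, summed to 57.5 to 85.6 in cKOHet and 15.03 to 51.6 in Control libraries; of these Csf1r was called higher (limma adjusted p = 0.0117) and Lyz2 was not called (0.296). The 3 Kupffer cell markers measured, of 4 in the list, summed to 35.3 to 44.3 in cKOHet and 3.34 to 18.0 in Control libraries. Cpa3, the 1 of 2 mast cell and basophil markers measured, was at 79.8 to 123 in cKOHet and 1.69 to 6.45 in Control libraries. The 2 of 3 ILC2 markers measured, nearly all of it Calca in cKOHet libraries, summed to 674 to 1099 in cKOHet and 0.20 to 1.70 in Control libraries. The 3 NK cell markers summed to 58.2 to 70.5 in cKOHet and 12.7 to 24.3 in Control libraries. Klra8 and Eomes were called higher (limma adjusted p = 0.000181 and 0.039), whereas Ncr1, too low to be tested, was at 5.52 to 7.05 in cKOHet and 8.45 to 9.47 in Control libraries. Of the 2 CD8 T cell markers, Cd8a was at 237 to 1657 in cKOHet and 10.7 to 20.1 in Control libraries (limma adjusted p = 2.19e-06), and Cd8b1 was at 13.6 to 35.4 in cKOHet and 3.56 to 31.5 in Control libraries and was not called (0.607). The erythroid gene Hba-a1 was at 7.40 to 33.2 in cKOHet and at 0.00 to 0.06 in Control libraries, whereas the ranges of the 4 hepatocyte markers overlapped (249 to 611 in cKOHet and 180 to 361 in Control libraries). The 3 regulatory T cell markers measured, of 4 in the list, went different ways. Tnfrsf18 was lower, at 438 to 593 in cKOHet and 749.9 to 759.8 in Control libraries (limma adjusted p = 0.00562), Ikzf4 was higher, at 49.4 to 109.6 in cKOHet and 13.9 to 45.4 in Control libraries (limma adjusted p = 0.0161), and Ctla4 was at no more than 15.8 in any library and was not called (0.478). The B cell and gamma delta T cell markers and Foxp3 were not analysed here. Several members are also expressed by these other cells, and the part of such cells in the results below was not tested.

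The members did not move together. Il2ra and Il21r were called higher and Il2rb and Jak3 lower in cKOHet cells, while the shared chain Il2rg, with Il7r, Il15ra, Il4ra, Stat5a and Stat5b, did not pass the test. A gene was called at a limma adjusted p under 0.05 over the 11226 genes tested, and 21.4% of all tested genes were called, 11.5% higher and 9.97% lower. Against that stand 4 of 10 members, 2 in each direction. The median log2 fold change (cKOHet over Control) of the 10 members was -0.02, and that of all tested genes 0.01. The groups did not overlap at 6 of the 10 members (Il2ra, Il2rb, Il4ra, Il21r, Jak3 and Stat5a), against 35.8% of all tested genes. With 3 against 3 libraries no exact two-sided permutation test can fall below 0.1. In bulk RNA, fewer cells of a type and less RNA per cell cannot be told apart.

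**Figure D1:**
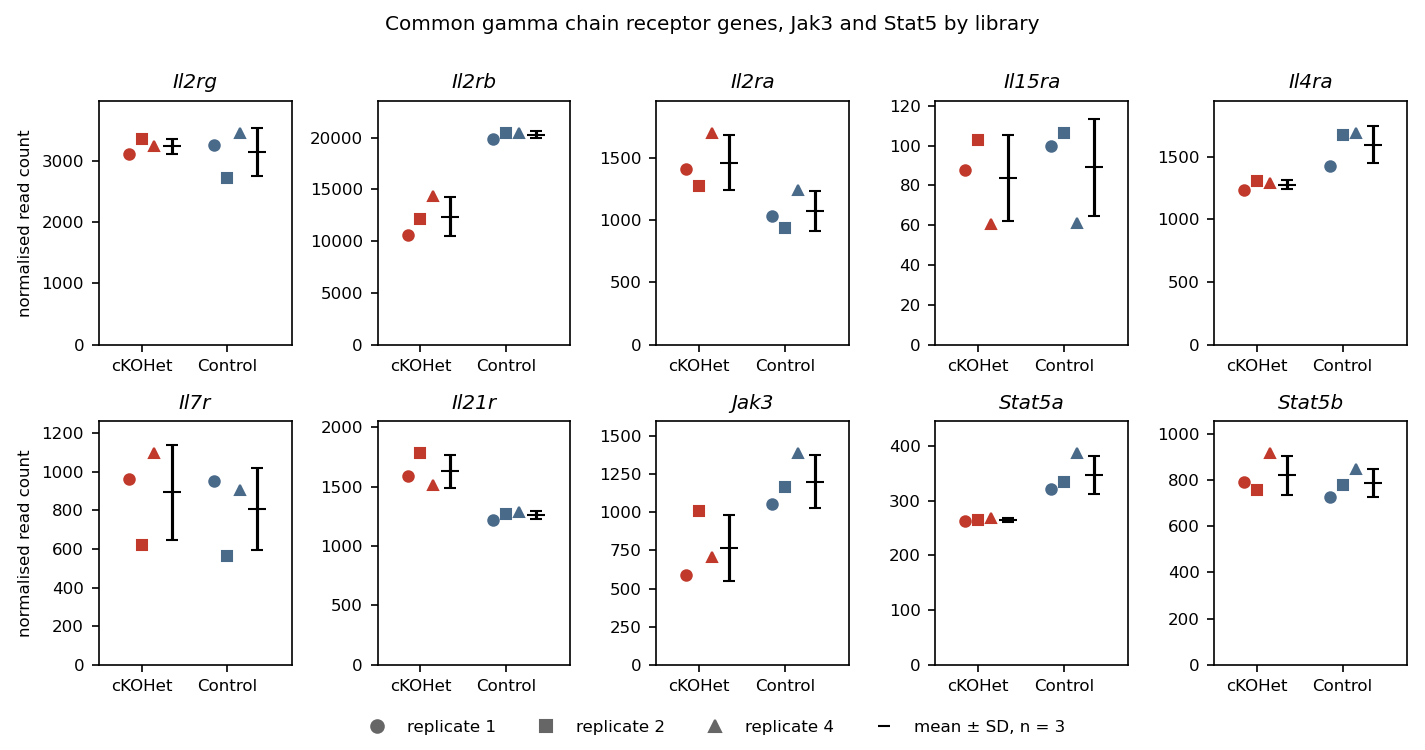
Normalised read count (linear axes starting at 0, 1 panel per gene) of the 10 members in the 3 cKOHet libraries (red, left) and the 3 Control libraries (blue, right), with marker shape for the replicate number and a bar for the mean ± SD of 3 libraries. Il2rb lay between 10596 and 14344 in cKOHet libraries and between 19870.4 and 20474 in Control libraries, whereas the Il2rg points of the groups overlap.

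Il2rg (ENSMUSG00000031304, chromosome X, 101264378 to 101268255), the chain common to all of these receptors, was at 3114, 3361 and 3242 in cKOHet libraries and at 3262, 2711 and 3457 in Control libraries. The groups overlapped fully, and Control replicate 2 was the lowest of the 6. Its fitted log2 fold change was 0.05 (SE 0.12, 95% interval -0.21 to 0.31, limma adjusted p = 0.83). Of the 50-base words in Il2rg transcripts, 27.5% also occur in the overlapping annotated gene Gm20489, so reads there may have been counted elsewhere or dropped, depending on settings that no label states.

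Il2rb (ENSMUSG00000068227, chromosome 15, 78479256 to 78495271), the beta chain that signals for IL-2 and IL-15, fell in cKOHet cells. It was at 10596, 12186 and 14344 in cKOHet libraries, against 19870.4, 20474 and 20437 in Control libraries. Every cKOHet library lay below every Control library, and the cKOHet libraries were spread far wider than the Control libraries (SD 1882 against 338). Its fitted log2 fold change was -0.72 (SE 0.15, 95% interval -1.05 to -0.40, limma adjusted p = 0.00285), which is 1.65-fold lower than in Control. The call held in all 18 alternatives at this threshold, with log2 fold changes of -0.83 to -0.58. Among replicates 1 and 2 alone, the libraries with high Xist, the log2 fold change was -0.83 (limma adjusted p = 0.00527), and between the 2 libraries with low Xist it was -0.51, with no replicate.

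Il2ra (ENSMUSG00000026770, chromosome 2, 11642807 to 11693193), the alpha chain CD25 that raises the affinity of the receptor for IL-2, was called higher. It was at 1414, 1274 and 1704 in cKOHet libraries, against 1038, 937 and 1247 in Control libraries. The groups came close, since cKOHet replicate 2 stood just above Control replicate 4. On the log2 scale the fold change was 0.45 (SE 0.14, 95% interval 0.15 to 0.74, limma adjusted p = 0.0322), or 1.36-fold. The limma call ended without cKOHet replicate 1 or 4 (log2 fold change 0.47 and 0.33, adjusted p = 0.0571 and 0.127) and without Control replicate 1 or 2 (0.43 and 0.35, adjusted p = 0.0973 and 0.142). It also ended without the mean-variance trend (limma adjusted p = 0.158). The log2 difference was 0.45 in the high Xist libraries alone (limma adjusted p = 0.0383) and 0.45 between the low Xist libraries.

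Il15ra (ENSMUSG00000023206, chromosome 2, 11705290 to 11734317), the chain that binds IL-15 and often presents it to neighbouring cells, was the lowest member. It was at 87.6, 103 and 60.4 in cKOHet libraries and at 99.7, 106 and 61.4 in Control libraries. Replicate 4, the library with low Xist, was the lowest in each group, and the groups overlapped. The log2 fold change was -0.09 with a wide 95% interval of -0.70 to 0.53 (limma adjusted p = 0.882). The interval spans changes in either direction, so the missing call does not show that Il15ra was unchanged.

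Il4ra (ENSMUSG00000030748, chromosome 7, 125552120 to 125579474), the signalling chain for IL-4 and IL-13, was at 1236, 1308 and 1292 in cKOHet libraries and at 1425, 1670 and 1691 in Control libraries. The groups did not overlap, but the log2 fold change of -0.32 (95% interval -0.56 to -0.07) missed the threshold (limma adjusted p = 0.0637). It passed with TMM scaling (limma adjusted p = 0.046) and with quantile normalization (limma adjusted p = 0.0256).

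Il7r (ENSMUSG00000003882, chromosome 15, 9505788 to 9530176), the IL-7 receptor alpha chain of naive and memory T cells, varied more within the groups than between them. It was at 960, 622 and 1096 in cKOHet libraries and at 951, 561 and 903 in Control libraries. Replicate 2 was far below the other libraries in each group. The log2 fold change was 0.15 (95% interval -0.30 to 0.60, limma adjusted p = 0.693).

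Il21r (ENSMUSG00000030745, chromosome 7, 125603429 to 125633570), the receptor chain for IL-21, was called higher. It was at 1588, 1782 and 1516 in cKOHet libraries, against 1219, 1270.03 and 1282 in Control libraries. The Control libraries were tightly grouped and every cKOHet library lay above them. The log2 fold change was 0.37 (SE 0.11, 95% interval 0.13 to 0.61, limma adjusted p = 0.0279), or 1.29-fold. The limma call ended without cKOHet replicate 2 (log2 fold change 0.30, adjusted p = 0.124), without Control replicate 1, 2 or 4 (0.35, 0.38 and 0.39, adjusted p = 0.109, 0.0705 and 0.0593) and without the mean-variance trend (adjusted p = 0.118). The log2 difference was 0.43 in the high Xist libraries alone (limma adjusted p = 0.0361) and 0.24 between the low Xist libraries.

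Jak3 (ENSMUSG00000031805, chromosome 8, 71676296 to 71690575), the kinase bound to the gamma chain, fell. It was at 589, 1008 and 705 in cKOHet libraries, against 1051, 1161 and 1387 in Control libraries. The groups were separate only narrowly, because cKOHet replicate 2 reached nearly the level of Control replicate 1. The log2 fold change was -0.67 (SE 0.17, 95% interval -1.04 to -0.30, limma adjusted p = 0.0108), which is 1.59-fold lower than in Control. The limma call ended without cKOHet replicate 1 (log2 fold change -0.50, adjusted p = 0.0533), without Control replicate 4 (-0.56, adjusted p = 0.0594) and without the mean-variance trend (adjusted p = 0.109). In the high Xist libraries alone the log2 difference was -0.52 (limma adjusted p = 0.148), and between the low Xist libraries it was -0.98. Of the 50-base words in Jak3 transcripts, 6.53% also occur in the annotated gene Insl3, which lies within the Jak3 interval on the same strand and was at no more than 5.53 in cKOHet and 22.9 in Control libraries.

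The Stat5 genes, neighbours on chromosome 11 that encode closely similar proteins, differed in their values. Stat5a (ENSMUSG00000004043, 100859351 to 100885169) was at 262, 265 and 269 in cKOHet libraries and at 321, 333 and 387 in Control libraries. The groups did not overlap, but the log2 fold change of -0.38 (95% interval -0.69 to -0.08) missed the threshold (limma adjusted p = 0.0747). Quantile normalization brought it just past (limma adjusted p = 0.0495). Stat5b (ENSMUSG00000020919, 100780731 to 100850724) was at 789, 756 and 916 in cKOHet libraries and at 726, 780 and 848 in Control libraries. These groups overlapped, with a log2 fold change of 0.06 (95% interval -0.20 to 0.33, limma adjusted p = 0.79). Stat5a and Stat5b together summed to 1085 ± 86.9 in cKOHet and 1132 ± 94.8 in Control libraries (exact two-sided permutation p = 0.6, n = 3 each). The ratio of Stat5b to Stat5a per kilobase of exons was 3.98 ± 0.37 in cKOHet and 2.92 ± 0.09 in Control libraries, without overlap (exact two-sided permutation p = 0.1, n = 3 each, the smallest this design allows). The genes share 8.21% of Stat5a and 10.98% of Stat5b 50-base words, so part of their reads may have been split between them or dropped.

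**Figure D2:**
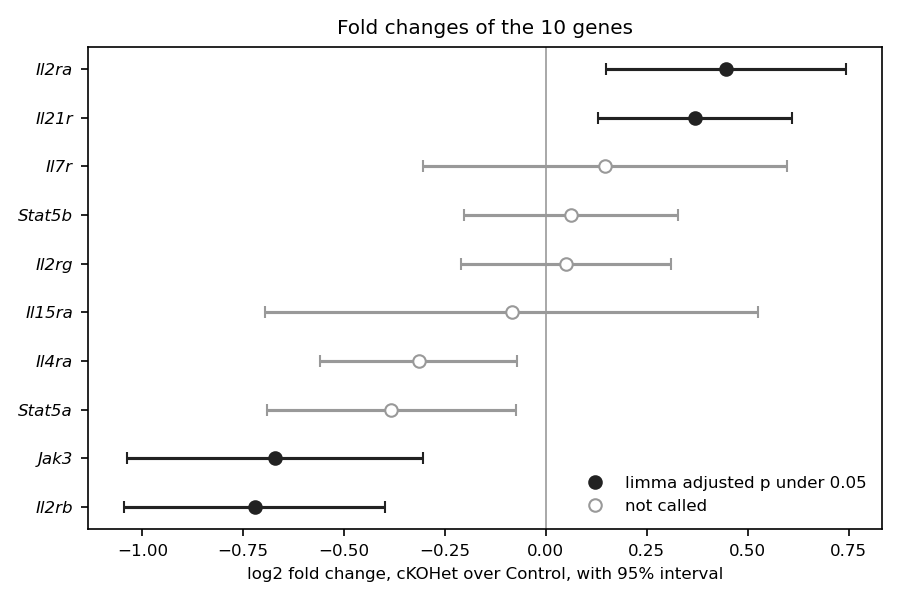
Log2 fold change, cKOHet over Control, on the horizontal axis for each of the 10 members, with its 95% interval from limma (filled, adjusted p under 0.05; open, not called). Il2rb (-0.72) and Jak3 (-0.67) lie lowest, Il21r (0.37) and Il2ra (0.45) highest, and the interval of Il2rg runs from -0.21 to 0.31.

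Levels can be compared between genes only per length, so values were divided by the kilobases of merged exons of each gene. On that scale Il2rb was the highest member, at 2887 ± 439 per kilobase in cKOHet and 4726 ± 78.9 in Control libraries, and stood at rank 61 in cKOHet and rank 36 in Control among 12870 genes. Il2rg came next, at 1357 ± 51.7 in cKOHet and 1317 ± 162 in Control libraries, and then Il21r, at 490.0 ± 41.3 in cKOHet and 378 ± 10.02 in Control libraries. The ranges of these 3 did not overlap each other in either group. Below them the order differed. In cKOHet libraries it was Il2ra (256 ± 38.4), Il4ra (213 ± 6.29), Il7r (191 ± 52.3), Stat5b (148 ± 15.2) and Jak3 (143 ± 40.4), where each neighbouring pair from Il4ra to Jak3 overlapped. In Control libraries it was Il4ra (266 ± 24.6), Jak3 (224 ± 32.0), Il2ra (188 ± 27.7), Il7r (173 ± 45.6) and Stat5b (142 ± 10.98), where each neighbouring pair overlapped. Stat5a and Il15ra were lowest in each group, and Il15ra averaged 18.8 ± 4.84 per kilobase in cKOHet and 20.1 ± 5.47 in Control libraries.

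The make-up of the receptor transcripts differed between the groups. Il2rb made up 53.1% ± 3.21 of the per-kilobase sum of the 7 receptor chains in cKOHet libraries and 66.9% ± 2.21 in Control libraries. That sum was 5413 ± 495 in cKOHet and 7068 ± 219 in Control libraries, without overlap (exact two-sided permutation p = 0.1, n = 3 each). Without Il2rb the other 6 chains summed to 2526 ± 58.9 in cKOHet and 2342 ± 221 in Control libraries (exact two-sided permutation p = 0.3, n = 3 each). The ratio of Il2rb to Il2rg per kilobase was 1.89, 2.02 and 2.46 in cKOHet libraries, against 3.39, 4.21 and 3.29 in Control libraries. The Il2rb transcript thus stood above that of Il2rg per kilobase in every library, by a smaller margin in each cKOHet library. The Il2rg values may lack reads shared with Gm20489, which would raise these ratios and lower the share and rank of Il2rg. Il2ra was at 0.19 ± 0.03 of Il2rg in cKOHet and 0.14 ± 0.01 in Control libraries. Il21r held 9.11% ± 1.23 of the sum in cKOHet and 5.35% ± 0.17 in Control libraries, a share that also depends on Il2rb. Set against Il2rg, Il21r was at 0.36 ± 0.02 in cKOHet and 0.29 ± 0.04 in Control libraries. The groups overlapped on that ratio (exact two-sided permutation p = 0.2, n = 3 each).

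**Figure D3:**
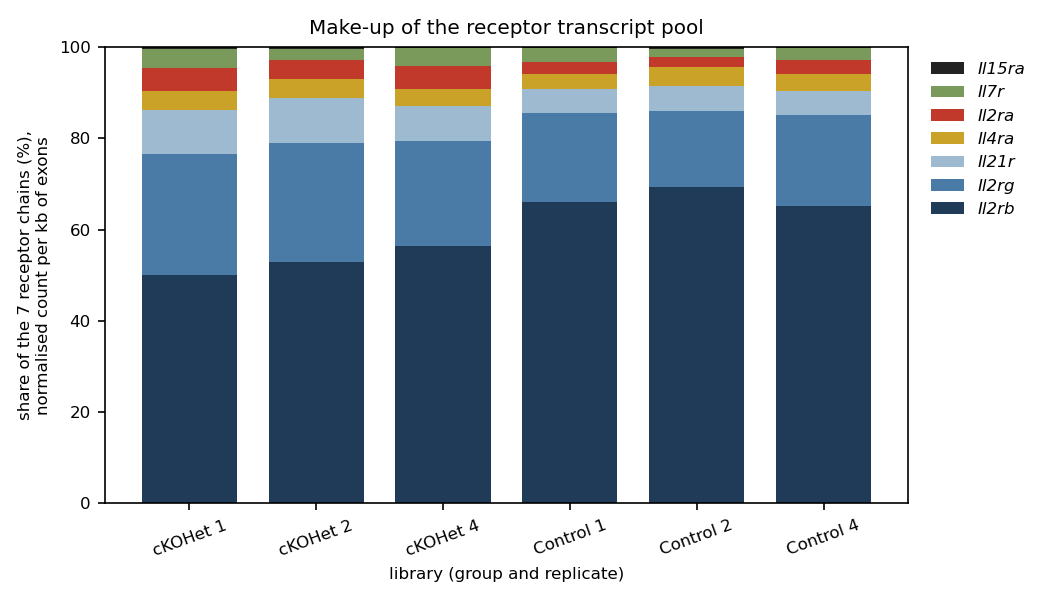
Share (%) of each of the 7 receptor chains in their summed normalised count per kilobase of exons, 1 bar per library, with cKOHet libraries on the left and Control libraries on the right. The Il2rb segment runs from 50.1% to 56.5% in cKOHet libraries and from 65.2% to 69.4% in Control libraries.

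Among the ligands, Il4 was called higher, at 344, 247 and 345 in cKOHet libraries, against 185, 185 and 185 in Control libraries. The Control libraries lay within 1 count of each other. The log2 fold change was 0.73 (SE 0.17, limma adjusted p = 0.00581), and it lost the call in the high Xist libraries alone (0.65, limma adjusted p = 0.0597). Il21, a cytokine of helper T cells, was low, at 9.07, 36.6 and 11.5 in cKOHet libraries and 11.1, 0.06 and 0.07 in Control libraries. Its groups overlapped, and its limma call (adjusted p = 0.0383) ended without cKOHet replicate 2 or 4 or Control replicate 2 or 4 (adjusted p = 0.178, 0.0787, 0.125 and 0.136) and its fitted log2 fold change of 2.81 became 3.98 when Control replicate 1 was left out. Il2 and Il15 were too low to be tested, with Il2 at no more than 1.07 in cKOHet and 8.33 in Control libraries. The other 3 ligands on the list were not analysed here.

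Il9r, the private chain for IL-9, was nearly silent in Control cells. Per kilobase it averaged 90.9 ± 25.0 in cKOHet libraries, between Jak3 and Stat5a in that group, and was listed at 0.02 to 0.16 in Control libraries. Crlf2, the receptor chain for TSLP that pairs with Il7r, was at 102, 221 and 80.2 in cKOHet libraries and 184, 250 and 378 in Control libraries. Its groups overlapped. It was called lower (log2 fold change -1.08, limma adjusted p = 0.0252), but not without cKOHet replicate 1 or 4 or Control replicate 2 or 4 (limma adjusted p = 0.0893, 0.138, 0.0555 and 0.138), nor with robust eBayes (0.0708) or library weights (0.0804). In the high Xist libraries alone its log2 fold change was -0.51 (limma adjusted p = 0.376).

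Of 10 other Jak, Stat and adaptor genes tested, 1 was higher, 1 was lower and 8 did not pass. Their median log2 fold change was 0.20. Among all tested genes 11.5% were called higher and 9.97% lower, with a median of 0.01. Jak1, the partner of Jak3, was at 4334 ± 537 in cKOHet and 5830 ± 665 in Control libraries (log2 fold change -0.43, limma adjusted p = 0.0325). Tyk2, a kinase of the IL-12 and interferon receptors, was at 1134 ± 145 in cKOHet and 809 ± 51.2 in Control libraries (0.48, limma adjusted p = 0.012). Stat6 and Stat3 were not called (limma adjusted p = 0.0839 and 0.478). The limma call of Jak1 ended without cKOHet replicate 1 or 2 or Control replicate 1 or 4 (adjusted p 0.0884 to 0.128), and that of Tyk2 without cKOHet replicate 2 or Control replicate 1 (0.0668 and 0.0512).

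Genes that restrain this signalling moved in opposite directions. Of 10 tested, 2 were higher, 4 were lower and 4 did not pass, with a median log2 fold change of -0.30. Over all tested genes the shares were 11.5% higher and 9.97% lower, and the median was 0.01. Socs2, a feedback inhibitor, rose to 2446 ± 169 in cKOHet libraries, against 982 ± 172 in Control libraries (log2 fold change 1.33, limma adjusted p = 4.09e-06). Ptpn6, the phosphatase SHP-1, rose to 4473 ± 337 in cKOHet, against 1942 ± 337 in Control libraries (1.22, limma adjusted p = 1.02e-05). The ubiquitin ligase gene Cbl fell to 270.5 ± 7.95 in cKOHet, against 726 ± 79.2 in Control libraries (-1.42, limma adjusted p = 1.69e-06). Sh2b3, the adaptor LNK, fell to 182 ± 24.4 in cKOHet, against 427 ± 13.6 in Control libraries (-1.23, limma adjusted p = 2.89e-05). Socs3 also fell (-1.44, limma adjusted p = 0.000907), as did Cblb (-0.44, limma adjusted p = 0.0165), whose call ended without cKOHet replicate 1 or 2 or Control replicate 1 or 4 (limma adjusted p 0.0501 to 0.0706). Cish, a direct feedback target of Stat5, was at 726 ± 164 in cKOHet and 806 ± 102 in Control libraries and did not pass (limma adjusted p = 0.517). Socs1 did not pass either (log2 fold change -0.66, limma adjusted p = 0.113), but was called without cKOHet replicate 2 (-0.92, adjusted p = 0.0361) or Control replicate 1 (-1.01, adjusted p = 0.00714).

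Genes known to be induced through Stat5 also went both ways. Of 11 tested, Socs2 and Cish among them again, 3 were higher, 3 were lower and 5 did not pass. Their median log2 fold change was -0.09. Against these stand 11.5% of all tested genes higher and 9.97% lower, with a median of 0.01. Pim1, a survival kinase, fell to 577 ± 137 in cKOHet, against 1185 ± 63.1 in Control libraries (log2 fold change -1.06, limma adjusted p = 0.000111). Pim2 fell to 148 ± 37.7 in cKOHet, against 378 ± 161 in Control libraries (-1.30, limma adjusted p = 0.00166), and the cyclin gene Ccnd3 to 1870.4 ± 116, against 3000.3 ± 339 in Control libraries (-0.68, limma adjusted p = 0.000728). Bcl2l1, which encodes the survival protein Bcl-xL, was called higher (0.36, limma adjusted p = 0.043), as was the cyclin gene Ccnd2 (0.50, limma adjusted p = 0.0424). Each of these 2 calls ended without cKOHet replicate 2 or 4 or any Control library (limma adjusted p 0.0609 to 0.169 for Bcl2l1 and 0.06 to 0.146 for Ccnd2), and that of Bcl2l1 also with TMM scaling (0.0526). Bcl2, the main survival gene downstream of IL-7 and IL-15, was at 1891 ± 173 in cKOHet and 2004 ± 35.2 in Control libraries and did not pass (limma adjusted p = 0.656). Mcl1 and Myc did not pass either (limma adjusted p = 0.778 and 0.661).

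Of 12 genes for transcription factors known to act on the receptor genes, 3 were higher, 2 were lower and 7 did not pass. Their median log2 fold change was 0.21. The shares over all tested genes were 11.5% higher and 9.97% lower, with a median of 0.01. Runx3, a factor of type 1 lymphocytes, rose to 1789 ± 86.3 in cKOHet, against 1061 ± 86.0 in Control libraries (log2 fold change 0.75, limma adjusted p = 0.000168). Prdm1, which encodes Blimp-1, rose to 425.5 ± 87.2 in cKOHet, against 164 ± 34.5 in Control libraries (1.37, limma adjusted p = 9.41e-05). Foxo1, an activator of Il7r, fell to 367 ± 22.6 in cKOHet, against 595 ± 42.1 in Control libraries (-0.70, limma adjusted p = 0.00102). Foxp1, which opposes Foxo1 at Il7r, fell to 219 ± 36.2 in cKOHet, against 567 ± 39.2 in Control libraries (-1.38, limma adjusted p = 8.9e-06). Gabpa and Elf1, other Ets-family genes, did not pass (limma adjusted p = 0.251 and 0.909). Eomes was low, at 12.5 to 26.2 in cKOHet and 0.07 to 12.6 in Control libraries. Its limma call (log2 fold change 2.57, adjusted p = 0.039) ended without any library other than Control replicate 2 (adjusted p 0.0767 to 0.149), and its log2 fold change was 3.67 without Control replicate 2 and 1.83 without Control replicate 4.

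**Figure D4:**
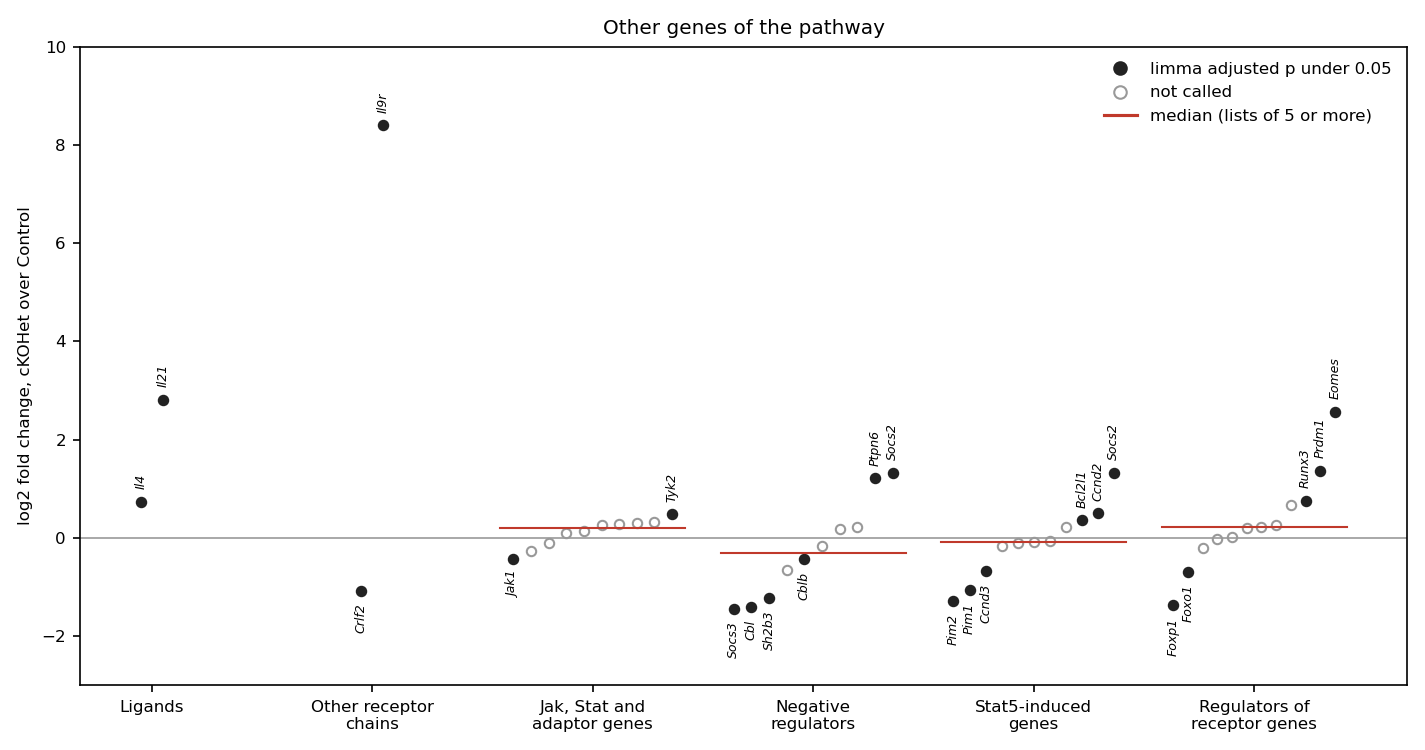
Log2 fold change, cKOHet over Control, on the vertical axis for each tested gene of 6 lists of the pathway (filled and named, limma adjusted p under 0.05; open, not called), with a red line at the median of lists of 5 or more. Il9r stands at 8.41, a fitted value that depends on the pseudocount because its Control libraries are near 0, while the genes called among restraining factors lie both above 0 (Socs2, 1.33) and below it (Socs3, -1.44).

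The genes whose pattern over the 6 libraries was most like that of a called member were found by Pearson r on the log2 scale among 8263 genes with a mean of at least 50. These were Mylip, Btg3 and F2rl2 for Il2rb (r = 0.998, 0.996 and 0.995), H2-K1, Rbm38 and Ypel3 for Jak3 (0.994, 0.993 and 0.989), Upf2, Nt5dc3 and Eea1 for Il2ra (0.990, 0.989 and 0.988), and Itgam, Capns1 and Tex264 for Il21r (0.993, 0.990 and 0.989). The points share the difference between the groups and the same libraries, so such values are a description. F2rl2, a protease-activated receptor, averaged 275 in cKOHet and 878 in Control libraries, and Mylip, a ubiquitin ligase, 252 in cKOHet and 557 in Control libraries.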

How the data were processed

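RNA was isolated with RNeasy kits and libraries made with the Ovation Ultralow system, per the labels. The authors deposited a table of normalised counts per Ensembl gene (a signal, not whole reads). Per the submitters' processing notes, Trimmomatic 0.33, STAR, HTSeq 0.6.1 and DESeq2 were used with mm10. Neither settings, annotation, strand nor adjustment method is given in the sources used here, and the original depth is unknown. GENCODE M21 named 12870 of the 12942 identifiers. Genes at or above 10 in at least 3 libraries (11226) were tested as log2(value + 1) with limma 3.58.1 in R 4.3.3 (mean-variance trend, Benjamini-Hochberg over all genes tested); fold changes are on that scale. No count model was run. The procedure was run on simulated whole counts with the same setting for the spread of every gene. Those differ from the adjusted values here, so that run does not test the procedure on values like these. Alternatives covered pseudocount, filter, scaling, variance model, threshold, replicate block, Xist and each library left out. The labels give 3 independent replicates but name no mice, so a p-value reflects only differences between libraries. In each group the replicate 1 column carries 2 joined sample codes. Members, pathway lists and the rule for named genes (members, called genes of each list, the 3 genes most like each called member) were chosen with earlier results of these data known. Genes named beside these were chosen after their values were seen. A gene of the pathway lists is not reported here.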

Additional observations from a re-analysis of the deposited data

How the results depend on the processing

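Pseudocount, filter, robust eBayes, library weights and a term for low Xist left 2 members higher and 2 lower. TMM scaling gave 3 lower and quantile normalization 4. Without the mean-variance trend 0 members were higher, 1 was lower and 14 of 45 other pathway genes were called, against 22 (lost were Il21, Crlf2, Jak1, Tyk2, Cblb, Bcl2l1, Ccnd2 and Eomes). In the high Xist libraries alone 1 member was lower, and Il4, Il21, Crlf2, Bcl2l1, Ccnd2 and Eomes lost their calls (16 called). Il21 also lost its call with quantile normalization (adjusted p = 0.052) and library weights (0.05). At an adjusted p under 0.01 the calls were 1476 genes in all, against 2407, with 0 members higher, 1 lower and 14 other pathway genes. Leaving out each library in turn, on the same genes, gave 1883 to 2207 genes, 0 to 1 members higher, 1 to 2 lower and 15 to 20 other pathway genes. Il2rb was the member that kept its call in each of these. Scaling moved the median of all genes by little (log2 0.01 as deposited, -0.01 with TMM, -0.02 with quantile normalization). Same-numbered libraries of the groups share a number and no stated origin; the deviations from the group means correlated at 0.081, 0.077 and 0.009 across 10839 autosomal genes, and cKOHet replicate 4 correlated best with Control replicate 1 (0.047). With a replicate block 2412 genes, 2 members higher, 2 lower and 23 other pathway genes were called, Socs1 being added (adjusted p = 0.0196); no member's call changed. The fitted values of Il2rg, Il7r, Il15ra and Stat5b changed sign with single libraries left out but were never called; no called member changed direction in any setting. With 3 libraries a group and an unknown depth, the wide intervals of Il15ra and Il7r leave changes in either direction possible. No detection limit was estimated.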
